A study of Saccharomyces cerevisiae with 95 samples.

Results

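The Red1 summits examined here are those of the outermost 25 kb at each of the 32 chromosome ends of budding yeast. The outermost summits of each of the 16 chromosomes in a list of Red1 summits were taken as its ends, and every summit under 25 kb from either end was a member, with the outermost summits included. Members numbered 215 of the 2385 summits in the list, or 9.01%, and the other 2170 summits of the same chromosomes were the comparison. The windows covered 800 kb, which is 6.99% of the distance between outermost summits added over the chromosomes.

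Red1 is a structural protein of the meiotic chromosome axis, the proteinaceous core to which chromatin loops are anchored in prophase of meiosis. It works with Hop1 and with cohesin that contains Rec8, and the axis helps to place the DNA double-strand breaks from which recombination starts and to direct their repair to the homologous chromosome. The DNA next to yeast telomeres carries repeated subtelomeric elements and silenced chromatin, and double-strand breaks are known to be sparse there.

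The series as a whole holds 95 samples and concerns the binding of condensin, cohesin, the cohesin loader and axis proteins in meiosis. The list used here was made by chromatin immunoprecipitation and sequencing (ChIP-seq) of wild type SK1 cells, a strain that sporulates fast and in near synchrony, 3 hours into meiosis. It pools 4 anti-Red1 libraries and 4 input libraries. The 4 anti-Red1 libraries are titled wild type, although one of them carries the genotype label of the strain with tagged condensin (SMC4-PK9), and 1 of the inputs is filed under that strain. No other allele, tag or drug is named for these libraries. Because the authors pooled the replicates before summits were called, each summit has 1 score, the −log10 of a p or q value from the peak caller MACS2, and there is no value per culture. Errors below are standard deviations (SD) across chromosomes and do not measure the spread between cultures. The read depth is unknown, and a score grows with depth, so scores were compared only within the list.

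Positions are 1-based and lie in the authors' SK1 assembly. No annotation of that assembly was used here, so the summits are described by position and not by gene, and no sequence is shown. The outermost summits are not the telomeres. On the 16 left ends they lay from 0.617 kb (chromosome VIII) to 32.7 kb (chromosome X) from base 1 of the assembly, with a median of 18.2 kb. The distance from the right outermost summits to the ends of the assembly was not used here, because chromosome lengths were not at hand.

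Red1 summits of the end windows had lower scores than the other summits of the same chromosomes. The median score was 97.7 among members (middle 50% from 47.0 to 297.0, range 20.6 to 2568), against 184 among the other summits (middle 50% from 61.7 to 693, range 20.0 to 2847). Per chromosome, the median log10 score averaged 2.04 ± 0.18 in the end windows and 2.28 ± 0.09 in the rest (SD, n = 16 chromosomes). The difference of -0.24 ± 0.21 corresponds to a ratio of 0.579 and was negative on 15 of 16 chromosomes. In an exact permutation of signs over chromosomes, two-sided, p was 0.000397 and the Benjamini-Hochberg adjusted p over the family of 6 permutation tests was 0.00119.

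The score deficit was largest on chromosomes I and XV. The median score on chromosome I was 72.9 over its 21 members, against 337 in the rest of that chromosome, a ratio of 0.216. On chromosome XV it was 63.3 in the windows, against 214 in the rest, a ratio of 0.296. Chromosomes VI and XI followed, with ratios of 0.373 and 0.416. The ratios of chromosomes IV, VIII and XVI, which lay between 0.845 and 0.934, were closest to 1 among the 15 chromosomes with lower windows. Chromosome II was the exception: its 10 members had a median score of 317, against 206 in the rest, a ratio of 1.54.

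**Figure D1:**
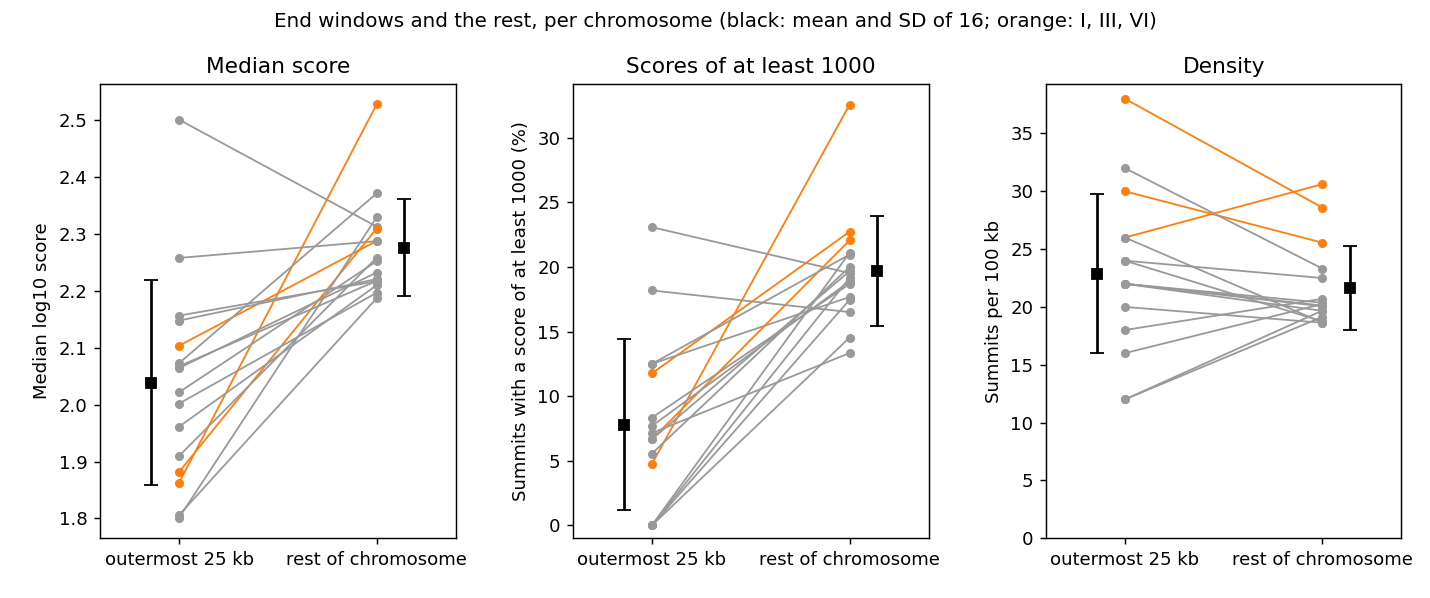
Each line joins the end windows (left) and the rest (right) of 1 chromosome, for the median log10 score, for the percent of summits with a score of at least 1000 and for the summits per 100 kb (the 32 outermost summits are not counted in the last panel). Black squares and bars are the mean and SD of 16 chromosomes and orange lines are chromosomes I, III and VI. The median score is lower in the windows on 15 of 16 chromosomes and the share of high scores on 14 of 16, while the densities overlap.

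High-scoring summits were few near the ends. Scores of 1000 or more were found at 16 of 215 members (7.44%), against 406 of 2170 other summits (18.7%) and 17.7% of the whole list. Per chromosome the share averaged 7.80 ± 6.64% in the windows and 19.7 ± 4.26% in the rest (SD, n = 16 chromosomes). The difference of -11.9 ± 8.02 percentage points was negative on 14 of 16 chromosomes, with p = 0.000153 and adjusted p = 0.000916 in the exact permutation test of signs. This share and the median score are readings of the same scores, not separate measurements. Chromosomes VII and XVI were the exceptions, with shares of 18.2% and 23.1% in the windows, against 16.5% and 19.5% in the rest.

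Scores under 50 were counted at 61 of 215 members (28.4%), against 436 of 2170 other summits (20.1%) and 20.8% of the whole list. In all, 107 members (49.8%) scored 100 or more, against 1376 other summits (63.4%) and 62.2% of the list. These counts are given without a test.

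The density of summits differed between windows and rest by less than its spread between chromosomes. The 32 outermost summits, placed in the windows by the way the ends are defined, were not counted. The density was 22.9 ± 6.85 summits per 100 kb in the windows and 21.7 ± 3.63 in the rest (SD, n = 16 chromosomes). The difference of 1.22 ± 5.28 was positive on 11 of 16 chromosomes (exact permutation p = 0.366, adjusted 0.439). Split by score, a division chosen after the data were seen, summits of at least 1000 had a density of 2.00 ± 1.63 per 100 kb in the windows and 4.35 ± 1.67 in the rest. Summits under 1000 had 20.9 ± 6.89 per 100 kb in the windows and 17.3 ± 2.35 in the rest. These values follow from the total density and the share of high scores, both taken without the outermost summits, and add no separate result. Among summits of 100 or more, the density was lower in the windows by a mean difference of -2.07 per 100 kb (exact permutation p = 0.0153, unadjusted), the opposite direction to that of all summits. This value likewise follows from the total density and the share of scores of 100 or more among the same summits, and adds no separate result.

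No difference between left and right ends was detected. The 100 left members had a median score of 106 and the 115 right members a median of 97.6. Per chromosome the median log10 score was 2.06 ± 0.27 on the left and 2.02 ± 0.23 on the right (SD, n = 16 chromosomes), a difference of 0.04 ± 0.34 that was negative on 8 chromosomes and positive on 8 (exact permutation p = 0.607, adjusted 0.607). Across the 16 chromosomes, Spearman's rho between the median score of the left window and that of the right window of the same chromosome was 0.14, given as a description. On the left ends, rho was 0.43 between the median score of a window and the distance of its outermost summit from base 1, over 16 ends, again as a description.

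The individual ends differed widely. The number of members ran from 3 to 14, with a median of 6, and the median score of an end ran from 36.5 to 447. The median was below that of the rest of its own chromosome at 25 of the 32 ends. Each end held at least 1 summit of 100 or more, and 14 ends held 1 or more of at least 1000. For comparison, 418 consecutive tiles of 25 kb were laid along the rest of the chromosomes, starting at the left window. A remainder under 25 kb next to the right window was left out. A summit of at least 1000 was present in 43.8% of the ends and in 67.9% of the tiles, and the highest score of an end had a median of 889, against 1374 for a tile. Tiles held a median of 5 summits, and a tile with none was given a highest score of 0. An end window holds its outermost summit by construction and a tile does not, so the numbers of summits per end and per tile are not directly comparable.

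**Figure D2:**
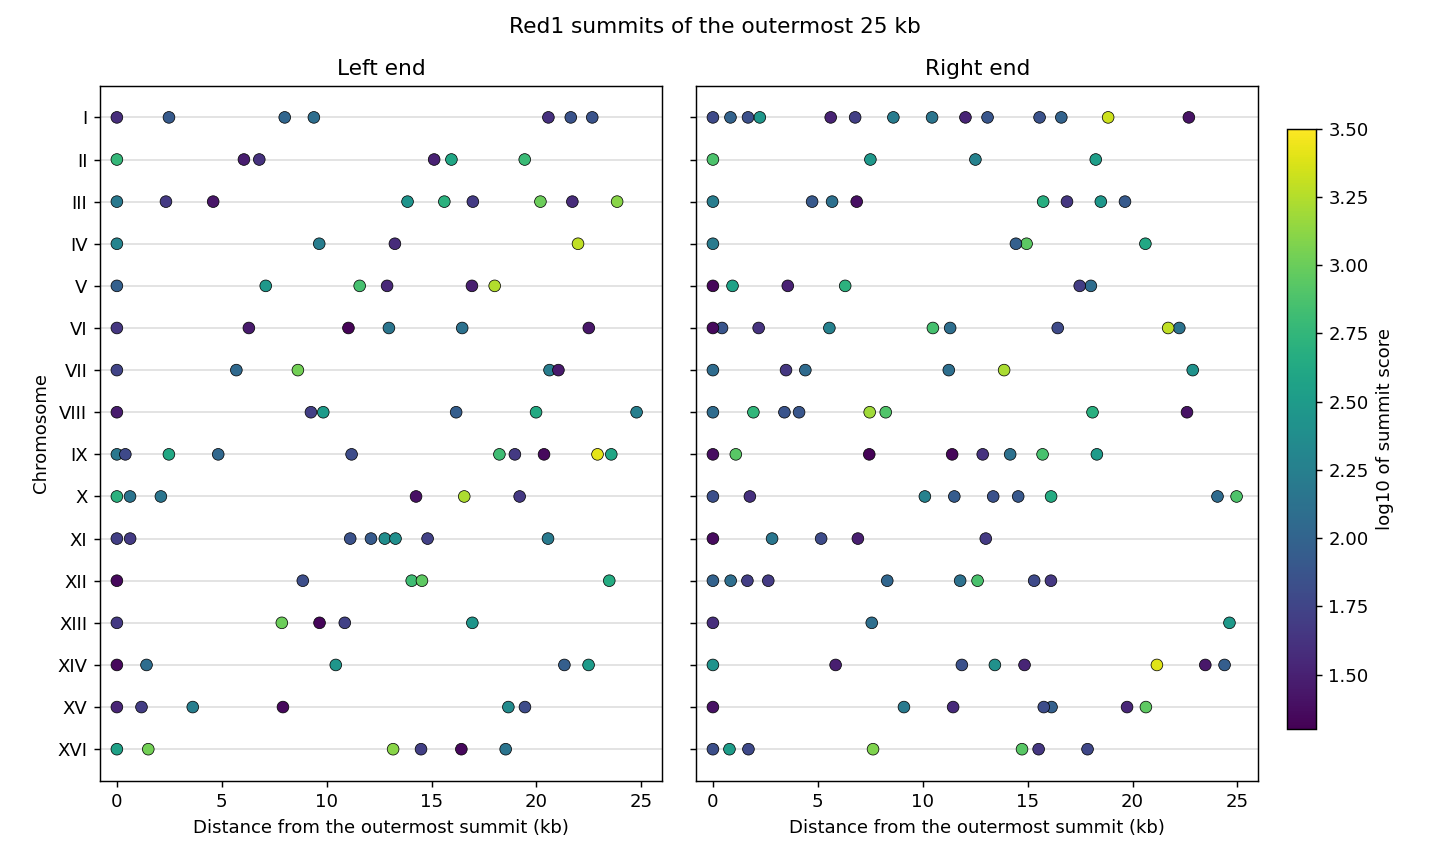
Each row is a chromosome and each point a member, placed by its distance in kb from the outermost summit of the left or right end and coloured by the log10 of its score (20.6 to 2568). Bright points, the summits of at least 1000, lie mostly in the inner part of the windows, 9 of the 16 at 15 kb or more from the end.

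On the short chromosomes, which are I, III and VI, each end had 6 to 14 members. The right end of chromosome I held 14 members, the most of all, with scores from 25.4 to 2141 and a median of 74.8; 1 summit, at position 199681, had the score of 2141. Its left end held 7 members from 38.3 to 121, a narrow low range with a median of 72.9. On chromosome III the left end had 9 members from 26.7 to 1296 (median 154) and the right end 8 members from 24.7 to 480 (median 105). That left end was the only window of these chromosomes with more than 1 summit of at least 1000, at positions 34396 (1013) and 38052 (1296). Chromosome VI had, on the left, the lowest median of all 32 ends, 36.5, over 6 members from 21.2 to 142. Its right end was higher, with 9 members from 22.8 to 1933 and a median of 123.

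Each end of chromosomes II, IV, V and VII had 4 to 6 members, at or below the median of 6 over all ends. The right end of chromosome II had only 4, but none below 183, a median of 318 and its highest score, 747, at the outermost summit itself. It was the only end whose outermost summit was its highest, and the lowest score there was above that of any other end. On the other side, 6 members of chromosome II ran from 29.8 to 619 (median 220). On chromosome IV, 4 left members ran from 36.9 to 1943 (median 182) and 4 right members from 92.6 to 878 (median 289). On chromosome V, 6 left members ran from 30.8 to 1750 (median 194) and 6 right members from 21.9 to 508 (median 85.0). Chromosome VII was the only one of these with a summit of at least 1000 at each end: 5 left members from 28.1 to 1076 (median 110) and 6 right members from 44.7 to 1649 (median 121).

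On chromosome VIII the left end had 6 members from 29.4 to 433 (median 132), and the right end 8 from 25.5 to 1526 with a median of 301, the third highest. Chromosome IX had 10 left members, the second largest number, from 22.9 to 2568 with a median of 130. Its 8 right members ran from 20.6, the lowest score of all members, to 845 (median 85.7). Chromosome X had 6 left members from 24.9 to 1688 (median 142) and 9 right members from 40.7 to 768 (median 85.4).

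Chromosomes XI, XII and XV, with chromosome II, had no member of at least 1000. On chromosome XI, 8 left members lay from 47.8 to 242 (median 77.4) and 5 right members from 23.2 to 146, with the second lowest median of all ends, 47.3. Chromosome XII had, on the left, the highest median of all ends, 447, over 5 members from 22.4 to 908, while its 9 right members had a median of 96.9 (45.6 to 746). The window with the highest median thus held no score of 1000. On chromosome XV the 6 left members had a median of 56.3 (22.3 to 224) and the 7 right members a median of 64.6 (25.2 to 899).

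The remaining chromosomes, XIII, XIV and XVI, each had at least 1 member of 1000 or more. Chromosome XIII had a left median of 52.9, the third lowest, over 5 members from 21.3 to 1021. Its right end had 3 members, the fewest of all, at 38.5, 125 and 302. Chromosome XIV had 5 left members from 22.4 to 318 (median 119) and 8 right members from 27.5 to 2458 (median 79.1). Chromosome XVI had 6 left members from 22.5 to 1293 (median 253) and 7 right members from 44.2 to 1190 (median 66.9).

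The 5 highest members all lay at 18 kb or more from their end. They were at position 41577 of chromosome IX (2568, 22.9 kb from the left end), position 758250 of chromosome XIV (2458, 21.2 kb from the right end), position 199681 of chromosome I (2141, 18.8 kb from the right end), position 39491 of chromosome IV (1943, 22.0 kb from the left end) and position 260141 of chromosome VI (1933, 21.7 kb from the right end). Of the 16 members of at least 1000, 1 lay within 5 kb of its end, 6 from 5 to 15 kb and 9 from 15 to 25 kb. The only one within 5 kb was at position 28550 of chromosome XVI, 1.50 kb from the left end, with a score of 1068. With 1 pooled list, the ranking of these summits carries no error.

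The outermost summits themselves scored low. The median over the 32 was 64.6 (range 21.9 to 747). Scores under 50 were held by 13 of them (40.6%), against 26.2% of the other members and 20.8% of the whole list. None reached 1000, against 8.74% of the other members and 17.7% of the list. In all, 9 were the lowest member of their end, a count for which no expected number was computed. Without the outermost summits, the 183 remaining members had a median of 110. Their removal left the difference in median log10 score at -0.17 (exact permutation p = 0.00742) and that in the share of at least 1000 at -10.3 percentage points (exact permutation p = 0.000885).

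From the end inward, scores were lowest in the first 5 kb. The median score of the 66 members under 5 kb was 76.6, and 1.52% reached 1000. These 66 include the 32 outermost summits, placed there by the way the ends are defined. The other 34 had a median of 81.0 and held the only summit of at least 1000 in this step. In the next 5 kb steps the medians were 110, 108 and 97.6, and 12.1%, 4.55% and 7.32% reached 1000. The 31 members from 20 to 25 kb had a median of 168, and 19.4% reached 1000. Just beyond the limit, the 51 summits from 25 to 30 kb had a median of 146 and 23.5% of at least 1000. The 187 summits from 25 to 50 kb together had a median of 192, with 19.3% of at least 1000, against a median of 184 and 18.7% beyond 50 kb.

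**Figure D3:**
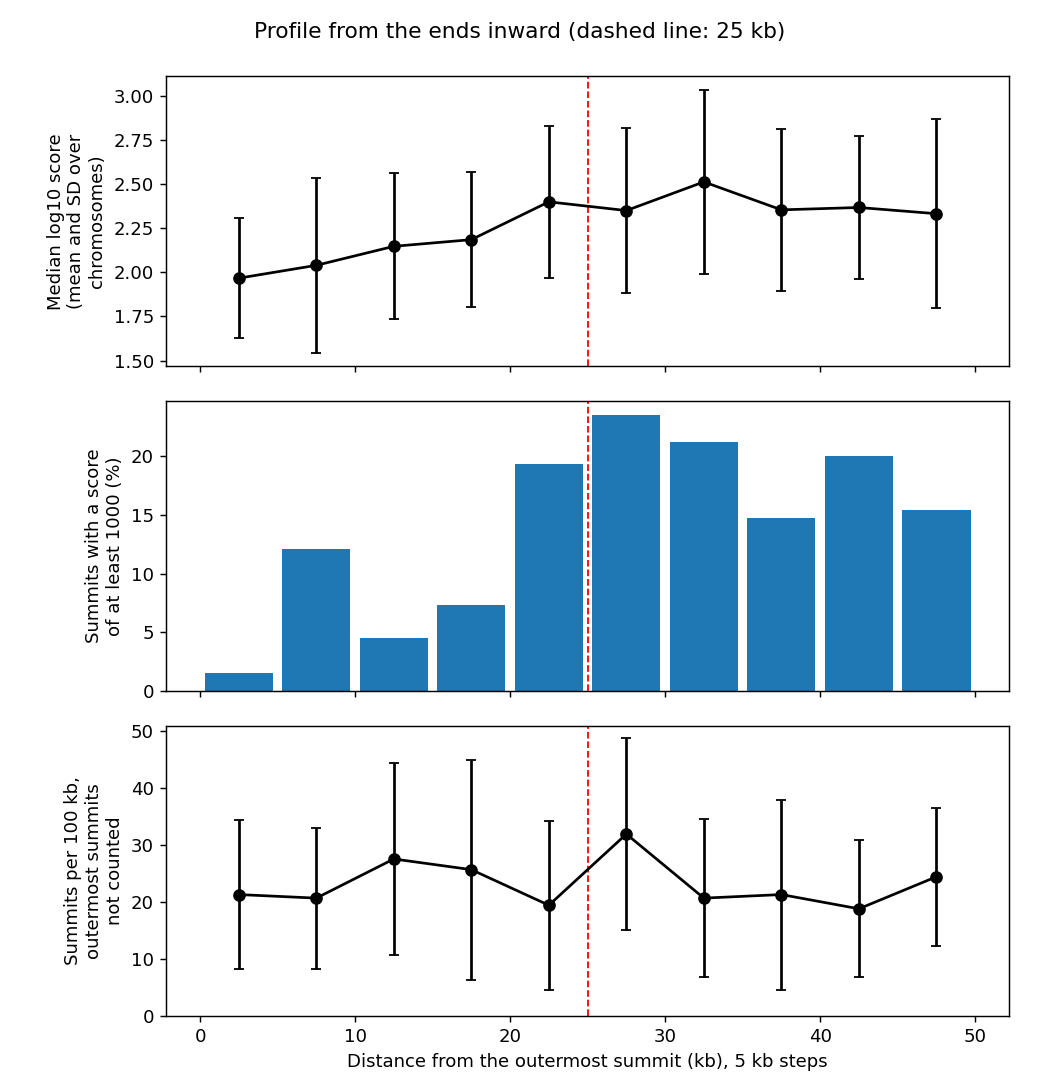
Values in 5 kb steps from the outermost summit, in kb, to 50 kb: the median log10 score per chromosome (mean and SD over the chromosomes with a summit in the step), the percent of all summits with a score of at least 1000, and the summits per 100 kb without the outermost ones (mean and SD of 16 chromosomes). The outermost summits are counted in the score and percent panels, all of them in the first step. The dashed line is 25 kb. The percent with a score of at least 1000 is 1.52% in the first step and 19.4% in the step next to the line, while the SD bars of the density overlap throughout.

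When the comparison was limited to the adjoining zone from 25 to 50 kb, an alternative chosen after the data were seen, the deficit was of the same size. The median log10 score was 2.04 ± 0.18 in the windows and 2.31 ± 0.28 in the adjoining zone (SD, n = 16 chromosomes), lower on 15 of 16 chromosomes, with a difference of -0.27 (exact permutation p = 0.000275, unadjusted). The share of at least 1000 differed by -12.7 percentage points (7.80 ± 6.64% in the windows and 20.5 ± 10.4% in the zone; exact permutation p = 0.000610, unadjusted). Whether the limit itself marks a step cannot be told from the 3 summits nearest it on each side, which lie on different chromosomes. The 3 members just inside the limit scored 302, 175 and 768, at 24.6 to 25.0 kb from their ends. The 3 summits just outside scored 642, 258 and 29.8, at 25.2 kb.

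The difference in spacing did not pass the test. The 183 distances between neighbouring members of a window had a median of 2331 bp and quartiles of 1145 and 5683 bp, against a median of 3386 bp and quartiles of 1316 and 7195 bp for the 2154 distances in the rest. A window of 25 kb cannot hold a longer distance, and the 32 distances that cross the limit, with a median of 6599 bp, belong to neither set. Per chromosome the median log10 distance was 3.43 ± 0.22 in the windows and 3.51 ± 0.08 in the rest (SD, n = 16 chromosomes), a difference of -0.07 ± 0.22 (exact permutation p = 0.193, adjusted 0.291). The difference passed the threshold in a window of 15 kb, which caps its distances more tightly, and without the outermost summits. Neither call was corrected for the cap, which does not apply to the rest. Distances under 1 kb made up 21.3% in the windows and 19.7% in the rest. The longest distances between neighbouring members were 17.1 kb on the right end of chromosome XIII, between positions 879323 and 896373, 14.4 kb on the right end of chromosome IV and 12.2 kb on the left end of chromosome X.

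Isolated summits did not have the high scores near the ends that they had elsewhere. Of the members, 48 lay 3 kb or more from the nearest other summit and had a median score of 144, against 529 for 630 such summits in the rest. Scores of 1000 or more were held by 2 of the 48 (4.17%), against 214 of the 630 (34.0%). Without the outermost summits, 33 members lay 3 kb or more from the nearest other summit. Their median score was 168, and 2 of them (6.06%) reached 1000. Among summits with a neighbour under 1 kb away the medians were close, 96.9 for 71 members and 109 for 778 others. The rank correlation (Spearman's rho) of score with the nearest-summit distance was -0.02 over the 215 members and 0.30 over the 2170 others. Per chromosome it was lower in the windows on 14 of 16, averaging -0.04 ± 0.32 in the windows, from 8 to 21 members each, and 0.31 ± 0.09 in the rest (SD, n = 16 chromosomes). These correlations are across sites of the same pooled libraries and are given as descriptions, and their difference was not tested. An outermost summit has a neighbour on only 1 side; without the 32 of them rho was 0.0036 over the other 183 members.

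**Figure D4:**
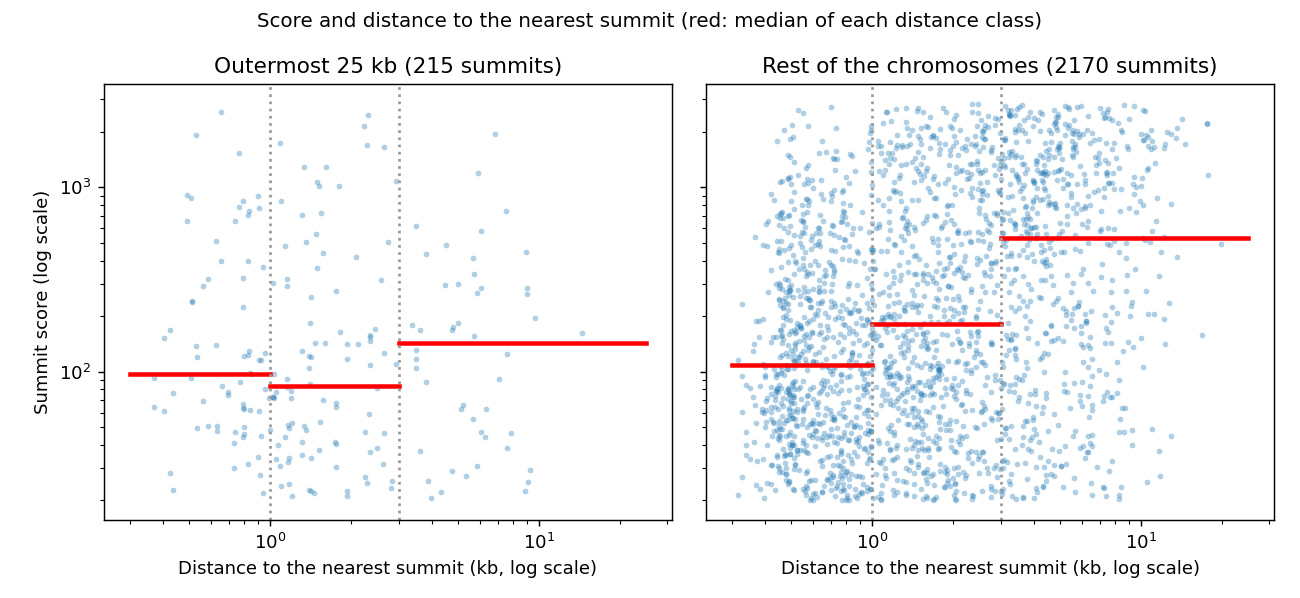
Each point is a summit, with its distance to the nearest other summit (kb, log scale) and its score (log scale), for the members (left) and the rest (right). Red lines are the medians of the classes under 1 kb, from 1 to 3 kb and of 3 kb or more. In the rest the lines step up from 109 through 182 to 529, and in the end windows they are 96.9, 83.8 and 144.

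Peak numbers in the list run upward along each chromosome, so numbers with no listed summit could be counted between members. Between the first and last member of the windows, 39 numbers had no summit in the list. Per chromosome, the listed share was 81.3 ± 10.3% in the windows and 84.8 ± 3.81% in the rest (SD, n = 16 chromosomes), a difference of -3.49 ± 10.4 percentage points, lower on 10 of 16 chromosomes (exact permutation p = 0.194, adjusted 0.291). Of the 417 unlisted numbers in all, 4 fell between the last listed summit of a chromosome and the first of the next one in the order of the list, where they can lie only outside the outermost summits or on a sequence that is not listed.

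Counted from base 1 instead, the first 25 kb of the 16 chromosomes held 39 listed summits in all, each of them an outermost summit or a member. Chromosomes V, X, XV and XVI, whose left outermost summits lie beyond 25 kb, had none there, and chromosome XI had the most, 8. These counts restate how far the left outermost summits lie from base 1, so no test of them is read as a result. A summit outside the list was not shown to be absent, since the depth is unknown and so is the handling of multiply mapping reads.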

How the data were processed

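The deposited list gives 1 base and 1 value per summit: the −log10 of a p or q value written by the authors' run of MACS2, and which of the 2 it is was not given in the sources used here. Bowtie and MACS2 2.1.1 are named in the submitters' processing notes. Per the name of the list, replicates were pooled and scores over 20 kept. Caller options are not given in the sources used here. Per chromosome, the value of the members minus that of the other summits was computed, and the mean difference over 16 chromosomes was tested by a two-sided exact permutation of all 65536 sign assignments. The smallest p this allows is 3.05e-05. The 6 tests form 1 Benjamini-Hochberg family. Chromosomes are not replicate cultures. Python 3.11.15, NumPy 2.4.6, SciPy 1.17.1 and pandas 2.3.3 were used, and the score test was tested on simulated data. The members, tests and alternatives were chosen with earlier results of these data known. Singly named were the 5 highest members, the ends at either extreme of member number and median, the 3 longest distances and the 3 summits on each side of 25 kb; chromosomes singled out beside these were chosen after their values were seen. The other 87 samples were not analysed here.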

Additional observations from a re-analysis of the deposited data

How the results depend on the processing

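No paired analysis was possible because the only list merges the 4 anti-Red1 libraries, and leaving out a replicate was not possible either. When single chromosomes were left out, the score difference lay between -0.27 and -0.21 and the difference in the share of at least 1000 between -12.9 and -10.8 percentage points, each past the threshold of 0.05 for the unadjusted p. Of the 184 alternatives to the 6 tests, 168 kept their direction and call, 1 lost the threshold, 6 newly passed it in the same direction and 9 changed direction, 3 of which, all for density, also passed it. The 184 count the omission of chromosome XII both as its own setting and among the single-chromosome omissions, with the same values. The score difference was -0.13 with a window of 50 kb (exact permutation p = 0.0816), its only lost call. The density difference changed direction to -0.606 at a score minimum of 50 and to -2.07 at 100 (exact permutation p = 0.0153). At 1000 it was -2.35 (exact permutation p = 0.000641). It was -0.659 with left windows only, -0.50 against the zone from 25 to 50 kb and -12.0 with left windows from base 1. The last of these passed the threshold, but those windows are empty up to the outermost summit by construction, so that call adds no result. In its own direction the density difference passed the threshold at 5.22 with the outermost summits counted and at 3.57 for scores under 1000. Counting the outermost summits adds the same amount on every chromosome, by the way the ends are defined, so the 5.22 adds no result. Distances inside a window are capped at its length, and those in the rest are not. With that cap uncorrected, the spacing difference passed the threshold at -0.14 with a window of 15 kb and at -0.11 without the outermost summits. The difference in listed share passed it at -12.6 and -19.8 percentage points with score minimums of 50 and 100, as the counting of low scores as unlisted gives. The left minus right difference changed direction to -0.0053 with a window of 15 kb, to -0.036 without the outermost summits and to -0.0078 with means, in each case under the spread between chromosomes. Pearson's r of the logs between member score and distance to the nearest summit was -0.0040, and Spearman's rho without the outermost summits was 0.0036. Beyond what is stated, the cause was not tested. The unknown depth limits every score.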
